A study of Drosophila melanogaster with 4 samples.

Results

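The regions described here are H3K79me1-enriched stretches of the Drosophila melanogaster genome that lie near centromeres or on chromosome 4. They were chosen by position from the authors' combined list of enriched regions (score above 0), in coordinates of FlyBase release 5. The position rule was set with earlier results of these data known. Taken were chromosome 4, the sequences 2LHet, 3LHet, 3RHet, XHet and YHet, and regions that start beyond 20 Mb on 2L, 21.5 Mb on 3L or 19.4 Mb on X. This gave 448 of the 7596 enriched regions of the combined list. They comprised 140 on proximal 2L, 116 on proximal 3L, 113 on proximal X, 54 on chromosome 4 and 25 on the Het sequences. The same positions held 354 of 6375 regions in the list of ChIP replicate 1 and 344 of 7305 in that of replicate 2. The sequence 2RHet and the arms 2R and 3R were left out, so the Het sequences below are only those named here.

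The series held 2 libraries of chromatin precipitated with a rabbit antibody raised against a histone H3 peptide monomethylated at lysine 79, and 2 libraries of input DNA. All 4 came from wild type Oregon-R larvae at the third instar, with formaldehyde-fixed and sonicated chromatin. The antibody's reference page, as the labels cite it, is named for the dimethylated form. Neither the sex and number of the larvae nor separate collections for the replicates are given in the labels. No list of the input libraries was analysed here, so the ChIP lists stand without a measured background, and the reads behind each region were unknown. No test was made: the only replicated value is the pair of ChIP lists, and regions of one library are not replicates of a condition. Regions are compared below with the 4086 enriched regions on the remainder of 2L, 3L and X, called the rest.

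Methylation of H3 lysine 79 is carried out by Dot1, called grappa in flies, and lies over the bodies of transcribed genes. Sequence around fly centromeres is packed as heterochromatin, rich in repeats, in methylated H3 lysine 9 and in the protein HP1, yet it holds genes that are active there. Chromosome 4, the small dot chromosome, carries HP1 over much of its length, has genes set among repeats, and is bound along its length by its own protein, Pof. The Het sequences of release 5 are assembled pieces of heterochromatin that are not joined to the arms.

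H3K79me1 regions took up a smaller share of the proximal arms than of the rest, a smaller one still of chromosome 4, and very little of the Het sequences. Regions covered 16.2% of the 9.08 Mb of proximal 2L, 3L and X in replicate 1 and 15.4% in replicate 2, against 31.3% and 31.0% of the rest. The ratio to the rest was 0.517 in replicate 1 and 0.497 in replicate 2. The replicates were close to each other, at 15.8% ± 0.543 for the proximal arms and 31.1% ± 0.186 for the rest (SD, n = 2). The gap between the classes was far wider than this spread of the replicates, which does not measure how cover varies along the arms.

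Each proximal part was also below its own arm. Proximal 2L was covered over 15.4% ± 1.34 (SD, n = 2), against 28.2% ± 0.229 of the rest of 2L. Proximal 3L stood at 13.7% ± 0.279, against 33.0% ± 0.00898 of the rest of 3L. Proximal X stood at 18.2% ± 0.575, against 32.1% ± 0.357 of the rest of X. Proximal 3L thus had the lowest share of its own arm, at ratios of 0.410 and 0.422 in the replicates, against 0.578 and 0.517 for 2L and 0.576 and 0.559 for X. Shares are of full sequence length, so sequence in which tags cannot be placed counted as not covered, and its part in these values was not tested.

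Of all 9 classes, chromosome 4 had the widest difference between the replicates in percentage points. Its regions covered 10.5% in replicate 1 and 6.43% in replicate 2, a mean of 8.45% ± 2.85 (SD, n = 2). The 5 Het sequences measured 5.99 Mb in all and were covered over 0.744% and 0.656%. Among them XHet, of 0.204 Mb, had 7.11% and 6.48%, and 2LHet, of 0.369 Mb, had 1.31% and 1.77%. Covered shares were 0.496% and 0.308% on 3LHet and 0.499% and 0.388% on 3RHet. YHet had no region in replicate 1 and 0.548% of its length in 1 region of replicate 2.

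**Figure D1:**
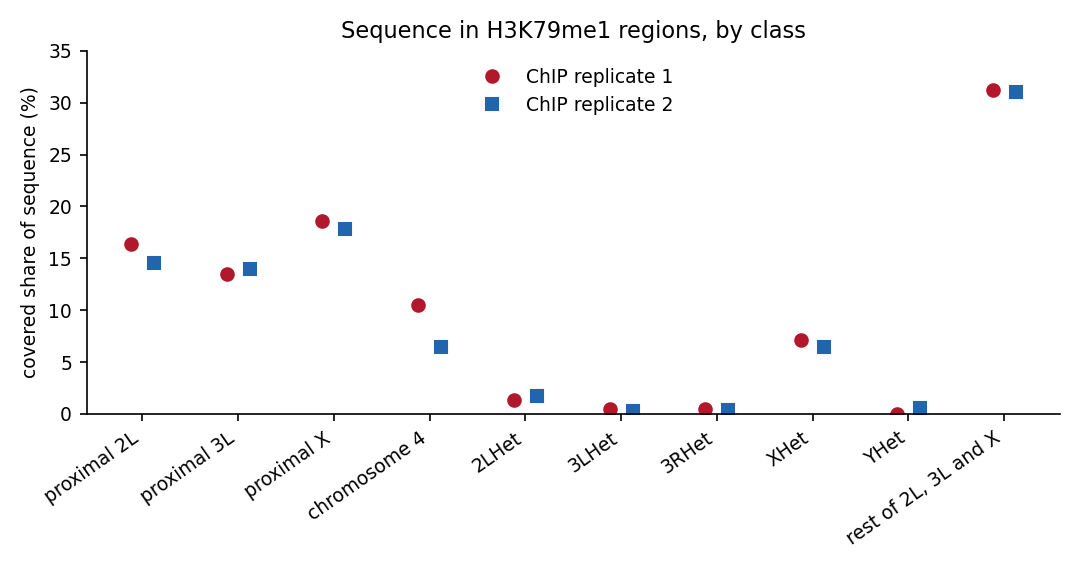
Share of each sequence class, in percent of its length, that lay in enriched regions of ChIP replicate 1 (circles) and ChIP replicate 2 (squares). All 9 classes sit below the rest of 2L, 3L and X, at 31.3% and 31.0%, and chromosome 4 shows the widest gap between the replicates.

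Within the proximal arms the marked sequence was not spread evenly. The split at 1.5 Mb from the proximal end of each arm sequence was chosen after the profile had been seen. The innermost 1.5 Mb of 3L was covered over 0.561% ± 0.485 (SD, n = 2), while the outer 1.54 Mb was covered over 26.5% ± 1.02. On 2L the inner part was at 4.36% ± 0.818 and the outer part at 26.5% ± 1.86. On X the step was smaller, with 13.2% ± 0.882 in the inner and 23.2% ± 0.273 in the outer part. All 3 inner parts were below their outer parts in both replicates, and the order of the inner parts, X above 2L above 3L, was the same in each.

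In windows of 250 kb the change on 3L came within a single step. The window from 1250 to 1500 kb off the proximal end was covered over 0.753% in replicate 1 and not at all in replicate 2. The next, from 1500 to 1750 kb, was covered over 18.6% and 20.9%. On 2L the window from 1500 to 1750 kb had 11.8% and 8.48%, and that from 1750 to 2000 kb had 45.5% and 41.2%. Proximal X went up and down instead, with 23.2% and 22.5% from 1000 to 1250 kb but 2.22% and 1.43% from 1750 to 2000 kb.

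Windows as poor as the proximal ones were also found further out. The median proximal window was covered over 10.5% on 2L, 8.35% on 3L and 13.6% on X, as means of the replicates, with 12 windows per arm. Medians of the other windows were 27.5%, 29.7% and 29.8%. Of the other windows, 13 of 79 on 2L, 7 of 85 on 3L and 15 of 76 on X lay below the median of the proximal windows of their arm. Conversely, 2 proximal windows on 2L, 1 on 3L and 2 on X exceeded the median of the other windows.

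**Figure D2:**
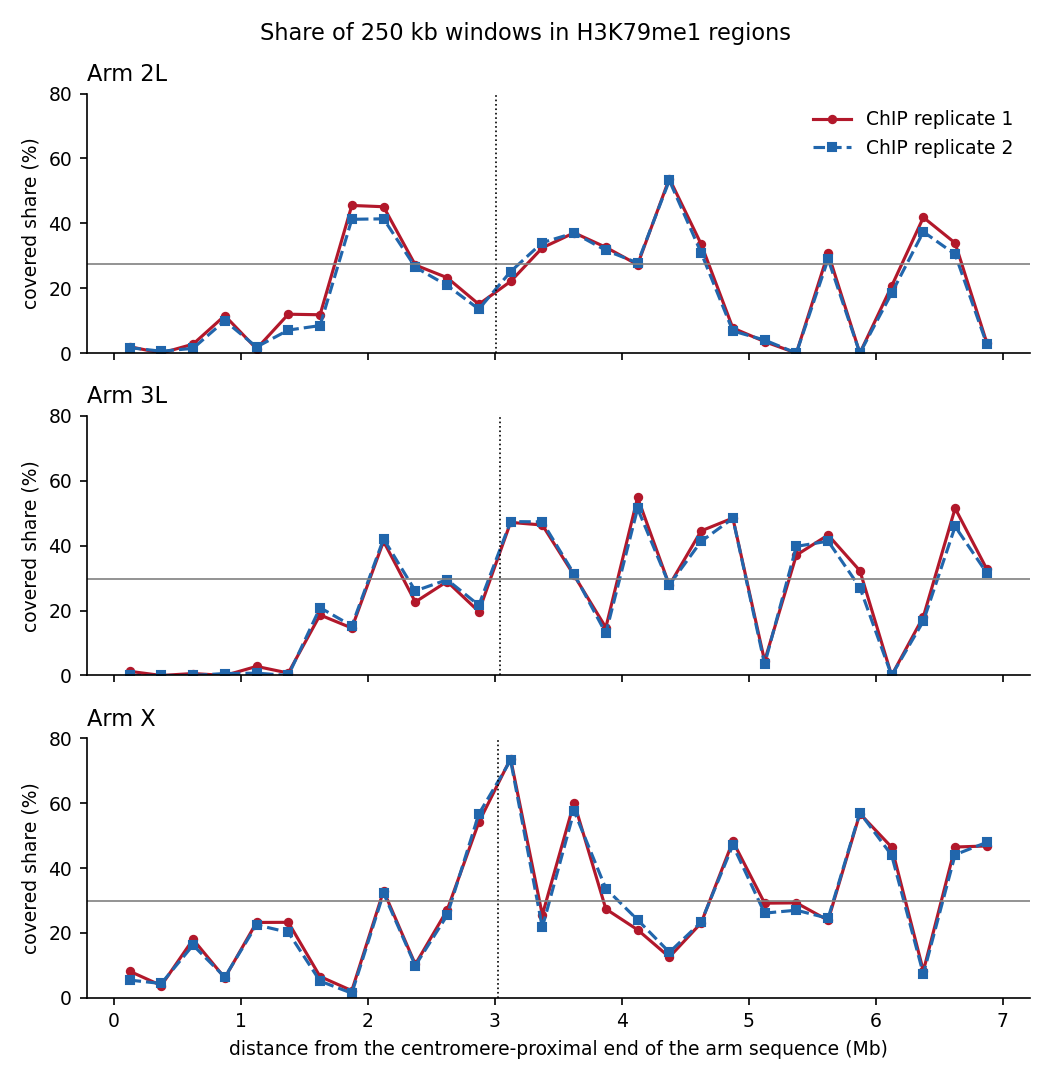
Share of each 250 kb window, in percent, in enriched regions of ChIP replicate 1 (solid) and replicate 2 (dashed), by distance in Mb from the centromere-proximal end of the arm sequence. The dotted line marks the position limit, the grey line the median window of the rest of the arm (27.5% on 2L, 29.7% on 3L, 29.8% on X); the innermost windows lie under that line on all 3 arms.

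The inner parts of 2L and 3L held fewer and shorter regions than their outer parts, while inner X held more regions than outer X, and shorter ones in the median. The inner part of 3L held 8 regions of the combined list, with a median width of 1387 bp and a highest score of 0.427, and 1 of the 8 was found in both replicates. On inner 2L there were 43 regions of 1987 bp in the median, the widest 5746 bp, and 19 of them were in both replicates. Inner X held 65 regions of 2566 bp in the median, of which 39 were in both replicates. Inner X also held a broad region, 22371 bp wide, with a score of 1.31. The outer parts held 97 regions on 2L, 108 on 3L and 48 on X, of 2753, 2358 and 5136 bp in the median.

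Regions near centromeres and on chromosome 4 were narrower than those of the rest. The median width in the combined list was 2393 bp, against 3145 bp in the rest. It was 3075 against 3539 bp in replicate 1, and 2762 against 3174 bp in replicate 2. By class, the median of the combined list was 3276 bp on proximal X, 2346 bp on proximal 2L, 2286 bp on proximal 3L, 2021 bp on chromosome 4 and 1978 bp on the Het sequences. Proximal X was thus above the rest, as it was with 3706 bp in replicate 1 and 3349 bp in replicate 2. Against the rest of X alone, at 3326 bp in the combined list, 3673 bp in replicate 1 and 3283 bp in replicate 2, the direction depended on the list. Regions of at least 10 kb made up 7.37% (33 of 448), against 14.6% (597 of 4086) of the rest. All 33 lay on the proximal arms, with 17 on X, 13 on 2L and 3 on 3L, and chromosome 4 and the Het sequences held none in any list.

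The authors' score, whose formula is not given in the sources used here, differed little from that of the rest once width was matched. The score was compared within a list only, and the rest was weighted so that 8 width classes held the same shares as the regions near centromeres and on chromosome 4. In the combined list the median score was 0.443, against 0.513 in the rest as it stands and 0.454 at matched width. At matched width the difference was -0.0115 in the combined list, -0.0357 in replicate 1 and -0.0159 in replicate 2. Without X in the rest it was 0.0143, -0.00164 and 0.0188 in the same lists, so that its sign depended on the arms it was set against.

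By class, proximal X and chromosome 4 lay on opposite sides of the width-matched rest. Proximal X had a median score of 0.809 in replicate 1 and 0.754 in replicate 2, against 0.764 and 0.709 for the rest of all 3 arms. Against the rest of X alone, at 0.824 and 0.778, it was lower in both replicates, while the combined list gave a difference of 0.0203, so the direction depended on the arms and the list. Proximal 3L was lower than the rest of its own arm at matched width, by a mean difference of -0.0401 ± 0.0121 (SD, n = 2). On proximal 2L that difference was -0.00252 ± 0.00501, which is within the spread of the replicates. The combined list gave -0.0160 on proximal 3L and -0.0197 on proximal 2L, so this contrast of the 2 arms was not seen there.

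Chromosome 4 had lower scores than the rest for its widths in both replicate lists. Its median was 0.540 in replicate 1, against 0.641 in the width-matched rest, and 0.416 in replicate 2, against 0.574. Against the rest of 2L and 3L alone the difference was -0.0681 in replicate 1 and -0.131 in replicate 2. The combined list gave -0.0277 against all 3 arms and -0.00685 against 2L and 3L, so the difference was smaller there. Without width matching, 9 of 46 chromosome 4 regions in replicate 1 (19.6%) and 8 of 34 in replicate 2 (23.5%) reached the median score of their list. The shares in the rest were 50.8% and 50.1%. As chromosome 4 regions were narrow, these counts do not part score from width. XHet went the other way, with medians of 0.866 and 0.680 against 0.698 and 0.628, on 5 regions in each replicate.

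**Figure D3:**
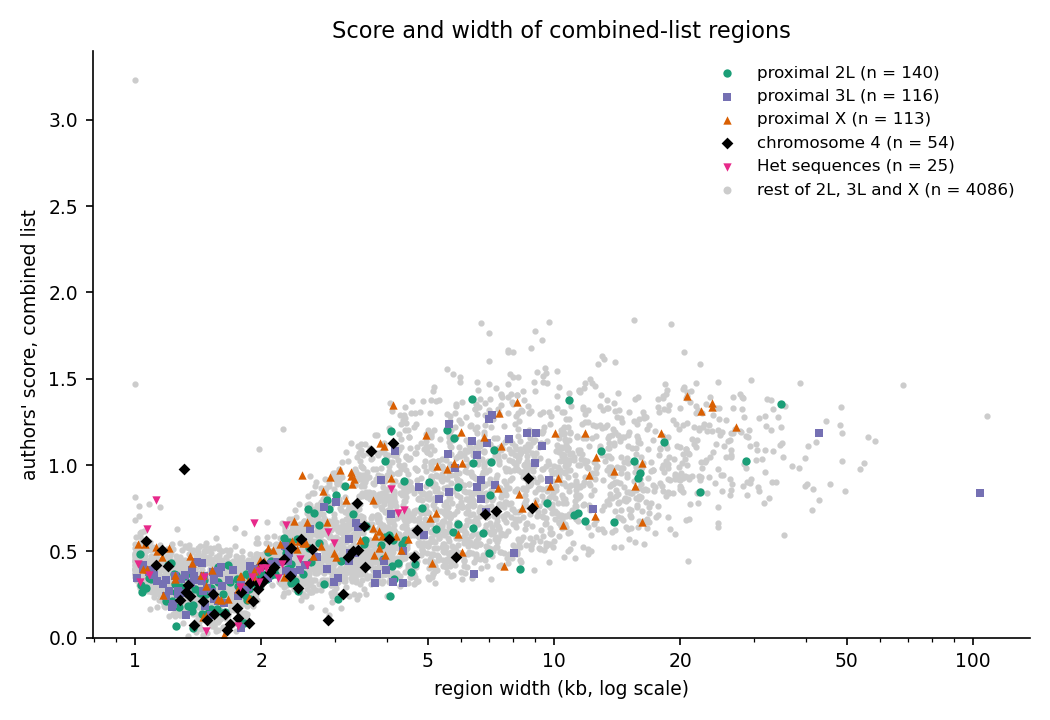
Authors' score against region width (kb, log scale) for the combined list, with the 448 regions near centromeres and on chromosome 4 by class and the 4086 regions of the rest in grey. The coloured points lie within the grey cloud at most widths, with median scores of 0.443 for the coloured points and 0.513 for the rest.

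The 5 highest scores belonged to proximal X and 2L, each in both replicates. The highest was X from 20262304 to 20283099, at 1.40 in the combined list, 1.49 in replicate 1 and 1.35 in replicate 2. It was followed by 2L from 20734938 to 20741313, at 1.38, 1.5 and 1.35 in the same lists. Then came 2L from 21220937 to 21231769 with 1.38, X from 19464923 to 19473059 with 1.37, and X from 19532327 to 19556106 with 1.36. All 5 were covered over at least 91.7% of their length in each replicate. Proximal 3L reached 1.29 in the combined list, at 21541235 to 21548356, near its outer limit.

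The widest region was on proximal 3L, from 22295393 to 22399419, 104 kb across and 2144 kb from the end of the arm sequence. Its score in the combined list was 0.839. Replicate 1 covered 95.5% of it in 9 regions of up to 37.7 kb, and replicate 2 covered 97.9% in 5 regions of up to 48.5 kb. The scores of these pieces ran from 0.635 to 0.821 in replicate 1 and from 0.610 to 1.03 in replicate 2. The single span is thus a feature of the combined list, while the marked sequence was shared by the replicates.

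Nearby on 3L, a stretch about as long as that widest region was marked in many small pieces. Other regions, such as 22250970 to 22260316 with a score of 1.11, lay between them. From 22129193 to 22233536 on 3L, a span of 104 kb, the combined list had 28 regions with no gap over 10 kb, the most in any such run described here. Their median width was 1724 bp, and 7 were in both replicates and 15 in neither. Regions took up 57.8% of the span in the combined list, but 16.8% in replicate 1 and 22.2% in replicate 2. This run was singled out after its values were seen.

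The other regions among the 5 widest were covered over at least 91.8% of their length in each replicate, some of them in several pieces. The next widest, 3L from 21874099 to 21917010, was a single region of 43.0 kb in replicate 1 and 41.1 kb in replicate 2, with scores of 1.29 and 1.12. On 2L the widest spanned 20648939 to 20683830, with a score of 1.36, and was covered over 98.6% and 99.0%. Another on 2L spanned 21153839 to 21182478, and was covered over 91.8% in 4 regions and 97.3% in 2. On X the widest lay from 19503503 to 19530749, with a score of 1.22, in 2 regions of each replicate.

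Replicate support followed width, and at equal width the shares found in both replicates and in neither were about those of the rest. Of the 448 regions, 260 (58.0%, exact 95% binomial interval 53.3% to 62.7%, counting error only) overlapped both replicate lists by at least 1 bp, against 65.5% of all regions of the combined list. The rest had 64.5%, and 56.4% once weighted to the same widths. Neither replicate overlapped 96 regions (21.4%), against 18.1% of the whole list and 22.8% of the width-matched rest. The interval of the share in neither ran from 17.7% to 25.5%, and both width-matched values lay inside the intervals. These intervals take regions as independent, which neighbouring regions of one library are not. They therefore do not decide whether the shares differ from those of the rest.

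Narrow regions carried most of the unsupported calls. In the class from 1000 to under 1500 bp, 2 of 101 regions were in both replicates, and 72.3% were in neither, against 74.6% of the rest. From 2000 to under 3000 bp, 63 of 83 were in both (75.9%), against 69.4% of the rest. At 6000 bp or more all 78 were in both, as were 99.7% of the rest. The shortest replicate region was 1301 bp wide in each list and the shortest of the combined list 1001 bp. The 58 regions under 1301 bp are thus narrower than any call in a replicate list, and none was found in both.

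**Figure D4:**
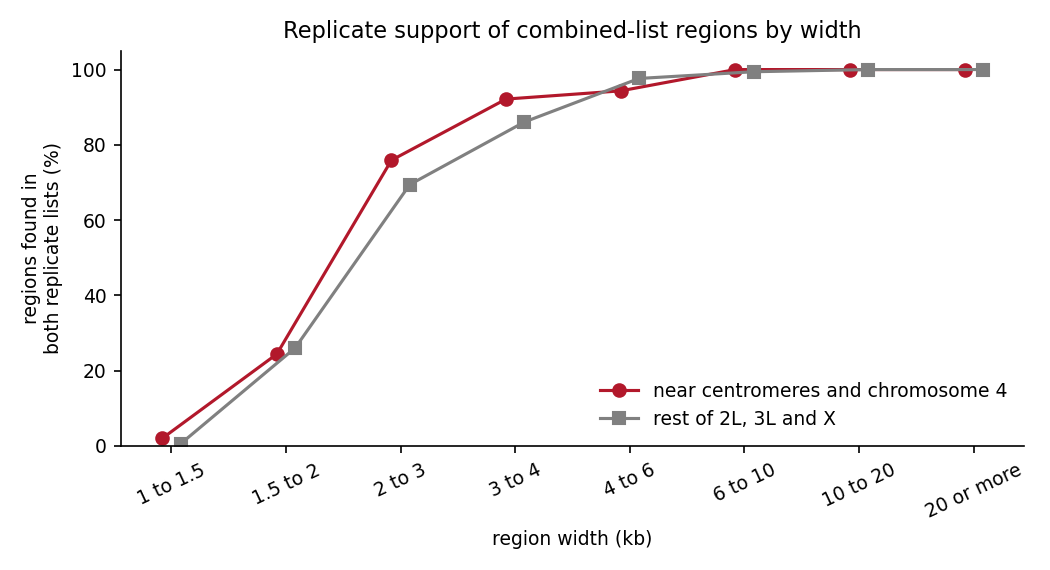
Share of combined-list regions, in percent, that overlap both replicate lists, by region width in kb, for regions near centromeres and on chromosome 4 (circles) and for the rest of 2L, 3L and X (squares). Both lines run close together, at 75.9% and 69.4% from 2 to 3 kb and at 100% and 99.4% from 6 to 10 kb, with the rest as the second value of each pair.

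Regions found in replicate 1 alone were more frequent than those found in replicate 2 alone, the reverse of the rest, where 265 and 425 regions were in replicate 1 alone and replicate 2 alone. Of the 448 regions, 59 (13.2%; interval 10.2% to 16.7%) overlapped replicate 1 alone, against 5.98% of the whole list and 7.96% of the width-matched rest. Only replicate 2 overlapped 33 (7.37%; 5.12% to 10.2%), against 10.4% of the whole list and 12.8% of the width-matched rest. The counts were 14 and 2 on chromosome 4, 21 and 9 on proximal 2L, and 12 and 5 on proximal X, replicate 1 first. Proximal 3L, with 10 and 14, and the Het sequences, with 2 and 3, did not share this order. The difference between the libraries was not tested, and their depths were not known.

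Read from the replicate lists themselves, chromosome 4 stood apart in replicate 1. There 28 of its 46 regions (60.9%; exact 95% interval 45.4% to 74.9%) were overlapped by replicate 2, against 92.0% of all regions of that list and 85.7% of the width-matched rest. In replicate 2, 32 of its 34 regions were overlapped by replicate 1 (94.1%; 80.3% to 99.3%), against 87.5% of the whole list and 81.2% of the width-matched rest. The 18 unmatched regions of replicate 1 were short, at 1928 bp in the median, and their scores reached 0.695, with 0.441 as the median. In length, 93.5% of what replicate 2 marked on chromosome 4 was also marked in replicate 1, against 91.1% in the rest. Of what replicate 1 marked there, 57.4% was marked in replicate 2, against 90.3% in the rest. These length shares were not matched for width.

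Agreement of the 2 lists, as the length shared over the length in either, ranged widely among the classes. This Jaccard index, not matched for width, was 0.867 on proximal X, 0.801 on proximal 3L and 0.765 on proximal 2L, against 0.829 in the rest. It was 0.552 on chromosome 4 and 0.656 over the Het sequences. On proximal 2L the gap came from replicate 1, of whose 494 kb 81.7% was shared, while 92.3% of the 437 kb in replicate 2 was. Over all regions described, 72.0% of the length in the combined list was in both replicates, against 76.6% in the rest. Ranks of the scores also went together, with a Spearman rho of 0.932 across the 218 proximal arm regions found in both replicates and 0.758 across 27 on chromosome 4, where regions share a library and are not independent.

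Chromosome 4 held 39.9 regions per Mb in the combined list, close to proximal 3L (38.1) and proximal X (37.4). Proximal 2L held 46.5 and the rest 67.1. In replicates 1 and 2 chromosome 4 held 34.0 and 25.2, against 55.6 and 63.7 in the rest. Its regions lay farther apart in the median, and in smaller groups, than those of the proximal arms. The median gap to the next region was 11.5 kb in the combined list, 12.6 kb in replicate 1 and 22.8 kb in replicate 2, against 1.25, 1.74 and 1.68 kb in the rest. Joined across gaps of up to 10 kb, its 54 regions formed 29 groups, 14 of them single regions, and none had more than 5 regions. Proximal 2L, 3L and X had median gaps of 2.28, 1.48 and 1.46 kb in the combined list, and their 140, 116 and 113 regions fell into 31, 22 and 22 groups.

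No 100 kb window of chromosome 4 was free of regions, and its highest scores in the combined list lay at the right-hand end of the sequence. In these windows the combined list covered 3.99% to 20.2%. The highest score was 1.13 at 1325399 to 1329533, with 1.04 in replicate 1 and 1.23 in replicate 2, 22.3 kb from the end of the sequence. One further region there, at 1338770 to 1342432, had 1.08, 1.15 and 1.08 in the same lists. Another, at 1311683 to 1312994, had 0.977 but overlapped neither replicate. The widest region, 8879 bp from 670468 to 679346, had a score of 0.753 and was covered over 97.6% and 89.2%, in 2 regions of each replicate. The one sharing most length with it had 0.997 in replicate 1 and 1.03 in replicate 2. In the replicates, scores of about 1 were thus not confined to the right-hand end.

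**Figure D5:**
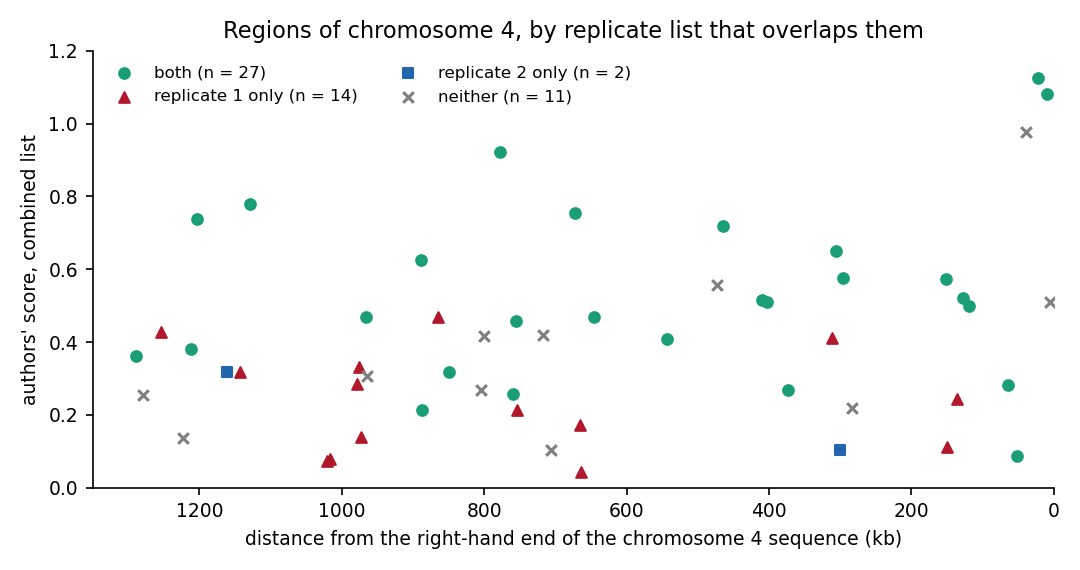
Authors' score of the 54 combined-list regions of chromosome 4 by distance in kb from the right-hand end of its sequence, marked by the replicate lists that overlap them (27 both, 14 replicate 1 alone, 2 replicate 2 alone, 11 neither). The 3 points of about 1 or above, at 1.13, 1.08 and 0.977, stand close to that end, the farthest at 38.9 kb, and regions of replicate 1 alone reach no higher than 0.469.

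On the Het sequences the 25 regions of the combined list came in small groups, with long stretches free of regions of that list. All 5 regions of XHet lay in one run of 27.0 kb, from 59636 to 86594, and all were in both replicates. They measured 2007 to 4383 bp, with scores of 0.402 to 0.742 in the combined list, 0.639 to 0.933 in replicate 1 and 0.375 to 0.823 in replicate 2. The regions of 3LHet formed 4 groups, between which the longest gap was 1537 kb, and 4 of its 8 regions were in both replicates. The longest gap on 3LHet was 1704 kb in replicate 2 but 853 kb in replicate 1, which had a call within the 1537 kb stretch. On 3RHet there were also 4 groups, with a longest gap of 539 kb between regions, and 5 of 8 regions were in both. Gaps leave out the ends of a sequence. The first region of 3RHet began only at 1693005 of its 2517507 bp, so the stretch before it was longer than any gap.

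Scores on the Het sequences differed among them: in the combined list 4 of 5 regions of XHet, 3 of 8 of 3RHet and 0 of 8 of 3LHet reached the median score of the list. In replicate 1 these counts were 3 of 5, 0 of 6 and 0 of 6, and in replicate 2 they were 2 of 5, 0 of 5 and 0 of 4. The rest had 50.2% in the combined list, 50.8% in replicate 1 and 50.1% in replicate 2, and none of this was matched for width. The highest of 2LHet, 0.864 at 26281 to 30359, was 0.935 in replicate 1 and 0.774 in replicate 2. The other regions of 2LHet, at 35244 to 37023 and at 167346 to 168808, had 0.296 and 0.351 and were overlapped by replicate 2 alone. The highest of 3RHet, 0.797 at 1816582 to 1817705, was 1124 bp wide and in neither replicate, whereas the widest, at 1819985 to 1822971, had 0.731 in replicate 1 and 0.405 in replicate 2. On 3LHet the highest score was 0.427, at 700884 to 703127, with 0.511 and 0.478 in the replicates. Its widest region, 594703 to 597270, had 0.421, with 0.651 in replicate 1 and 0.431 in replicate 2. The region of YHet, 305771 to 307697, had 0.666 in the combined list and 0.897 in replicate 2, and no counterpart in replicate 1.

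The regions next to the position limits differed in width on every arm. On X the first region inside was 7383 bp wide with a score of 1.30, and the last outside, 28117 bp wide, had 1.33. On 3L the first inside was 3375 bp wide with 0.663, and the last outside was 14925 bp wide with 1.04. Regions were placed by their start, and the last region outside reached across the limit on all 3 arms. A wide region is more likely to reach across a given point, so these widths are not a fair contrast of inside and outside. On 2L both were short calls seen in neither replicate, 1026 bp wide with 0.488 inside and 1215 bp wide with 0.196 outside. The lowest score inside the zero limit was 0.0166, on proximal X.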

How the data were processed

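H3K79me1 ChIP and input libraries of Oregon-R larvae were grouped by their titles, and the 2 ChIP replicates had a region list each. Bowtie 0.12.7 is named in the submitters' processing notes. Per the file headers, coordinates follow release 5 of FlyBase. Each region carries the authors' deposited score beside its position; caller, threshold, score formula, use of input and combination of replicates are not given in the sources used here. Depth was unknown. A gene table of release 6 did not match that build, so no gene or sequence is given.

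Sequence lengths came from the file headers. Covered length, overlap (at least 1 bp), gaps and medians were computed from enriched regions with pandas 2.3.3, numpy 2.4.6 and scipy 1.17.1 under Python 3.11.15, and drawn with matplotlib 3.10.9. Width matching weighted the rest over classes starting at 1000, 1500, 2000, 3000, 4000, 6000, 10000 and 20000 bp. Cover and matching were tested on simulated data. Named regions were the widest and highest scoring per class (all where a class held 5 or fewer), the 5 widest and 5 highest among all classes, and those at the limits. Members and rules were chosen with earlier results of these data known. Alternatives changed score, width, overlap, merging, limits, matching, class and replicate.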

Additional observations from a re-analysis of the deposited data

Results flagged for a closer look

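Regions called depleted stood outside the comparisons, and some lay within the sequence described. Replicate 1 had 0 such regions, replicate 2 had 5, of which 2 were here, and the combined list had 8, of which 1 was here. On proximal 2L the depleted region lay from 21279402 to 21280951 with a score of -0.0247 in replicate 2 and from 21279371 to 21280955 with -0.0833 in the combined list. No enriched region of any list overlapped it, and enriched regions of the combined list began or ended 0.492 and 1.77 kb away.

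On chromosome 4, replicate 2 had a depleted region from 686475 to 687987 with a score of -0.0210. The same place was called enriched in replicate 1, with 0.305, and in the combined list, from 686389 to 688042, with 0.0440, the lowest score of chromosome 4. The replicates thus gave opposite calls at this place.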

How the results depend on the processing

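Of 90 alternative values, 50 stayed within the spread of the replicates, the counting interval or 1.5 times a count, and 40 moved. The cause was not tested except where fewer regions enter by construction. For cover with a replicate left out, staying was fixed in advance, because either of a pair of values lies within their SD of their mean. For length shares and the Jaccard index the interval took a share of base pairs as a count of regions, so staying within it says little. Regions at or above the median score gave 188 regions of 4726 bp, gaps of 5.40 kb, a matched score difference of 0.0256, and cover of 11.8% (proximal arms), 2.85% (chromosome 4) and 0.213% (Het). Merging within 1 kb gave 297 regions of 3231 bp and gaps of 4.88 kb. Regions of at least 2 kb numbered 265, of 3954 bp, with a score difference of 0.00605 and cover of 14.4% and 0.447% (proximal arms, Het). Without width matching the score difference was -0.0700, and shares in both and in neither replicate differed by -6.45 and 2.80 percentage points. Limits moved 500 kb toward and away from the centromere gave proximal cover of 12.6% and 19.4%, with gaps of 1.80 kb for limits moved away.

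Gaps were 1.61, 11.5 and 4.26 kb on the proximal arms, chromosome 4 and Het sequences alone. Chromosome 4 alone had 2021 bp and a score difference of -0.0277, and Het sequences 1978 bp, 0.0182, and 16.9 and -9.38 points. The mean of the replicate lists gave 2918 bp and -0.0258, and with 1 replicate left out widths were 2762 to 3075 bp, score differences -0.0357 to -0.0159 and gaps 2.84 to 3.10 kb. The combined list covered 19.1% and 0.901% (proximal arms, Het), and the rest without X, chosen after the data were seen like a minimum at the narrowest replicate width, gave 0.0143. The direction of the score difference is therefore not settled by these lists. No paired analysis was possible because a region list was at hand for ChIP alone and inputs were not analysed here. Depth was unknown, so narrow regions seen in 1 list cannot be judged by it.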
